A study of Mus musculus with 4 samples.

Results

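The genes described here are 6 nuclear receptors of the steroid hormone family, Esr1, Esr2, Pgr, Nr3c1, Nr3c2 and Esrrg, which were found by their symbols among the 32285 genes of the deposited matrices. All 6 were present, with 1 identifier each. Single-nucleus RNA sequencing was run on the cerebral cortex of adult C57BL/6J mice that had received a daily intraperitoneal injection of risperidone (4 mg/kg), an antipsychotic that blocks dopamine D2 and serotonin 2A receptors, or of saline. Injections began at postnatal day 22 and went on for 21 days, and the drug was then withheld until the tissue was taken at postnatal day 90. Per condition, the right cortices of 5 male and 5 female mice were combined in 1 pool before the nuclei were made, and nuclei of each pool were loaded on 2 Chromium lanes. Since these lanes repeat the same pool, the spread between animals was not measured, no test between the conditions was possible, and every interval below covers counting error only.

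Steroid receptors are transcription factors that wait in a complex with chaperones such as Hsp90 and, once a hormone is bound, act on response elements in the DNA. Nr3c2 encodes the mineralocorticoid receptor and Nr3c1 the glucocorticoid receptor. In the brain both bind corticosterone, the first with high affinity at basal hormone levels and the second mainly at the levels reached in stress or at the daily peak. Esr1 and Esr2 encode the estrogen receptors alpha and beta, and Pgr encodes the progesterone receptor, a classical target of estrogen in many tissues. Esrrg encodes the estrogen-related receptor gamma, which binds no known natural estrogen and is known for its control of mitochondrial and oxidative metabolism genes.

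The lanes held between 119736937 and 203675013 unique molecular identifiers (UMIs, each standing for 1 captured RNA molecule). Of the 108955 nuclei listed, 89378 were kept, with a median of 3322 and 3784 UMIs for saline lanes 1 and 2 and of 5716 and 7757.5 UMIs for risperidone lanes 1 and 2. Between 160 and 221 cell barcodes were shared by any pair of lanes. The nuclei were grouped into 58 clusters and named from marker genes, with the ending "-like" because no annotation by the authors was used. This gave 18 types that hold the values below, of which 7 were layer types of glutamatergic neurons and 11 were other classes. The layer types were intratelencephalic (IT) neurons of layers 2/3, 4/5 and deep layers, extratelencephalic (ET) neurons of layer 5, near-projecting (NP) neurons of layers 5/6, corticothalamic (CT) neurons of layer 6 and claustrum-like neurons. The other classes were PV-, Sst-, Vip- and Lamp5-like interneurons, striatal-type spiny projection neurons (SPN-like), astrocyte-, oligodendrocyte- and oligodendrocyte precursor (OPC)-like nuclei, and endothelial-, mural- and fibroblast-like nuclei. None of the fixed markers was among the 10 leading genes of the L5 ET-like cluster, which held Npsr1, a check marker of NP neurons, although its 7 ET markers stood 2.83 to 8.48 times above their level in all nuclei. The deep IT-like name rests on part of its markers. Osr1 (9.08), Sulf1 (3.30), Oprk1 (2.50) and Il1rapl2 (1.48) stood above their level in all nuclei by these ratios. Deptor (0.828) and Fezf2 (0.277) stood below it. The astrocyte-like class was made of 2 clusters that split by pool, since the first held 9.83% and 9.29% of its nuclei in saline and 95.6% and 96.3% in risperidone, and the second held the rest. The oligodendrocyte-like class also joined 2 clusters. The first held 58.5% and 66.2% of its nuclei in saline and 40% and 64.7% in risperidone, and the second held the rest. Between 20.1% and 20.8% of the nuclei per lane had no class, and a layer 6b type was not recovered.

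An estimate of the RNA that a class held from other nuclei differed between the pools. It is the level of markers of foreign classes divided by their level in all nuclei of the lane, as the median over the markers. The divisor also moves with the mix of nuclei in a lane, so the estimate is not a measured share of RNA. Whether free RNA was the source of the difference was not tested. In glutamatergic-like nuclei the estimate came to 28.6% and 25.7% for saline and to 16.4% and 15.5% for risperidone. The estimate was higher in the saline pool in most types, and its values stand beside the results below that they touch. In endothelial-, mural- and fibroblast-like nuclei it lay between 62.5% and 170%, and no corrected values are given there.

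Levels are given as CPM, the UMIs of a gene per 1000000 UMIs of a lane or of a type within a lane. In all nuclei, the level of Nr3c2 was 323 and 323 CPM in saline and 292 and 292 CPM in risperidone. The level of Nr3c1 was 160 and 160 CPM in saline and 179 and 181 CPM in risperidone. Both corticosteroid receptors had at least 14647 UMIs in each lane, and the lanes of a pool differed by less than the pools did. Esrrg was found at 315 and 312 CPM in saline and at 270 and 268 CPM in risperidone. Pgr was found at 47.2, 48.1, 46.5 and 46.9 CPM in the same order. The estrogen receptors were rare, with Esr1 at 7.81, 7.84, 6.40 and 6.98 CPM and Esr2 at 1.52, 1.45, 1.16 and 0.999 CPM. Esr2 was counted 139, 173, 159 and 171 times in the 4 lanes, so most types held only a handful of its UMIs.

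Nuclear RNA is rich in unspliced transcripts, so long genes collect more UMIs, and levels of different genes are compared here per kilobase of gene. On GRCm38, the mouse genome build of the files, Esr1 lies at chr10:4611593-5005614 on the plus strand and spans 394 kb. Esr2 lies at chr12:76120419-76177259 on the minus strand and spans 56.8 kb. Pgr lies at chr9:8899833-8968611 on the plus strand and spans 68.8 kb. Nr3c1 lies at chr18:39410545-39519421 on the minus strand (109 kb), Nr3c2 at chr8:76899442-77245012 on the plus strand (346 kb) and Esrrg at chr1:187608791-188214885 on the plus strand (606 kb). Per kilobase, the mean level over the lanes was highest for Nr3c1 (1.56 CPM per kb), followed by Nr3c2 (0.891), Pgr (0.686) and Esrrg (0.481), and the estrogen receptors came last, with Esr2 at 0.0225 and Esr1 at 0.0184 CPM per kb. Per kilobase of exon the order was another, with Nr3c2 (47.6 CPM per kb) and Esrrg (46.9) above Nr3c1 (22.1), Pgr (5.52), Esr1 (0.531) and Esr2 (0.380), so the order of the corticosteroid receptors depends on which length is used. Genes on the opposite strand overlap Nr3c2 (Gm10649, 48.2 CPM) and Esrrg (Gm36388, 16.2 CPM), and whether the counting used strand is not given in the sources used here.

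The receptors differed in where they were highest. Each was compared over the 18 types by its mean CPM over the 4 lanes, with the range over lanes as the spread.

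**Figure D1:**
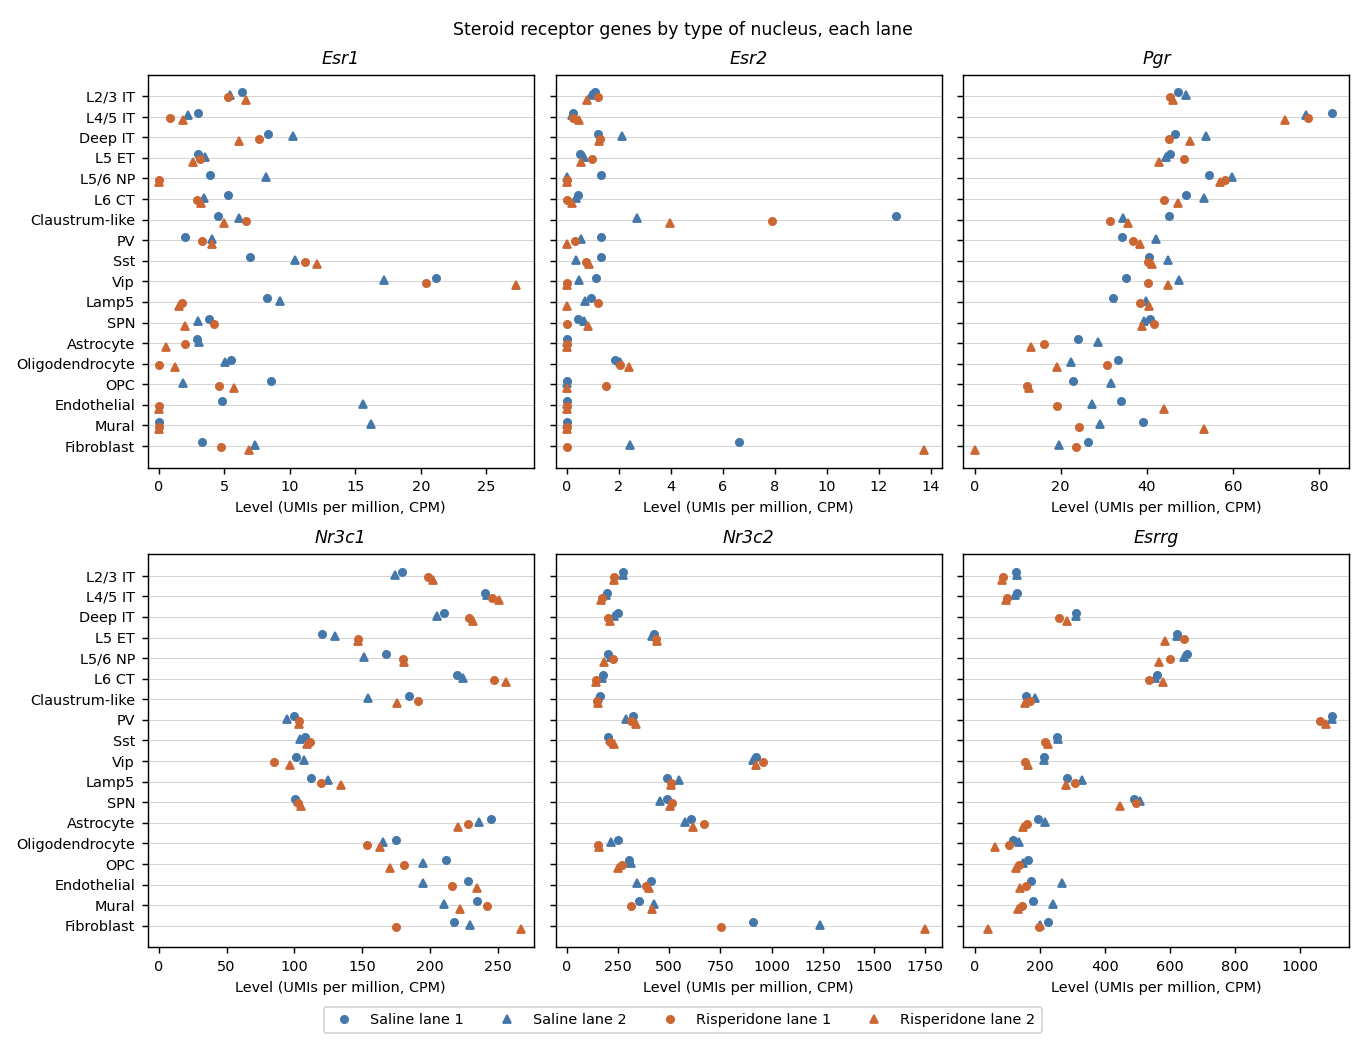
Level of each receptor gene in CPM (horizontal axes, linear, each with its own scale) in the 18 marker-named types (rows; every name stands for nuclei that are like that type), with 1 point for each lane. Esrrg stood out in PV (1061 to 1100 CPM), Esr1 in Vip (17.2 to 27.2 CPM) and Nr3c2 in Vip and fibroblast rows, whereas Nr3c1 varied least.

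Nr3c2, the mineralocorticoid receptor gene, was found at 924, 909, 957 and 922 CPM in Vip-like interneurons (saline lanes 1 and 2, then risperidone lanes 1 and 2). The 4 lanes of that class did not overlap with any other class but the fibroblast-like one, which ranged from 751 to 1748 CPM and stood first by its mean of 1161 CPM. Under a stricter marker gate the fibroblast-like mean was 617 CPM, but that gate left no Vip-like nuclei to set beside it. In saline it kept 82 of 122 and 79 of 145 fibroblast-like nuclei, so the fibroblast-like values of the gates describe different sets of nuclei. Astrocyte-like nuclei came next with 606, 577, 671 and 618 CPM. Lamp5-like interneurons (490 to 549 CPM) and SPN-like nuclei (453 to 514 CPM) overlapped, and L5 ET-like neurons followed with 415 to 442 CPM. Nr3c2 was lowest in the deep glutamatergic types, at 140 to 178 CPM in L6 CT-like and 147 to 162 CPM in claustrum-like neurons, which overlapped. Within the interneurons, the level in Vip-like nuclei contrasted with 199 to 233 CPM in Sst-like nuclei. Once the estimated RNA of other nuclei was taken out, Vip-like nuclei had the highest mean of the types that could be corrected, with 1080 CPM, followed by astrocyte-like nuclei with 771 CPM, and claustrum-like neurons had the lowest with 47.3 CPM.

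Nr3c1, the glucocorticoid receptor gene, was spread more evenly, with a ratio of 2.51 between its highest and lowest type. Its highest mean was 245 CPM in L4/5 IT-like neurons (240, 242, 246 and 251 CPM), followed by 237 CPM in L6 CT-like neurons and 233 CPM in astrocyte-like nuclei. The lanes of these types overlapped, so their order was not resolved. It was low in each of the PV-, Sst-, Vip- and SPN-like classes, where lanes ranged from 84.8 to 111 CPM, and slightly higher in Lamp5-like interneurons (112 to 135 CPM). L5 ET-like neurons, at 121 to 147 CPM, overlapped with the Lamp5-like class rather than with the other layer types, which started at 151 CPM. The mean levels of the astrocyte-like and L4/5 IT-like types after the correction were 269 CPM each, and the lowest was that of PV-like interneurons with 78.0 CPM.

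The balance between the corticosteroid receptors was therefore set apart by type. In Vip-like interneurons 9.11, 8.48, 11.3 and 9.52 Nr3c2 UMIs were counted for each Nr3c1 UMI in the 4 lanes. Fibroblast-like nuclei had a mean of 5.10 (4.17 to 6.54), SPN-like nuclei 4.77, Lamp5-like interneurons 4.19, L5 ET-like neurons 3.17 and PV-like interneurons 3.14. The ratio was below 1 in all 4 lanes of only 3 types, with means of 0.872 in claustrum-like, 0.747 in L4/5 IT-like and 0.672 in L6 CT-like neurons. With RNA of other nuclei taken out, the mean level of Nr3c2 was 47.3 CPM against 184 CPM of Nr3c1 in claustrum-like neurons. It was then below that of Nr3c1 in oligodendrocyte-like (101 against 163 CPM), deep IT-like (201 against 231 CPM) and, by a narrow margin, L5/6 NP-like nuclei (167 against 170 CPM) as well, so the number of such types depends on the correction. As the genes differ in length, the ratio is read between types and not as a ratio of receptor molecules. Over all nuclei it was 2.03 and 2.02 in saline and 1.63 and 1.62 in risperidone, and it was lower in both risperidone lanes than in both saline lanes in 8 of 18 types. It was higher in both risperidone lanes in 2 types, the Vip-like class and the astrocyte-like class (2.47 and 2.44 in saline, 2.94 and 2.80 in risperidone). In L4/5 IT-like neurons, 1 of the 8 types, the direction turned once RNA of other nuclei was taken out, with Nr3c2 at 134 CPM and Nr3c1 at 280 CPM in saline and at 153 and 258 CPM in risperidone.

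**Figure D2:**
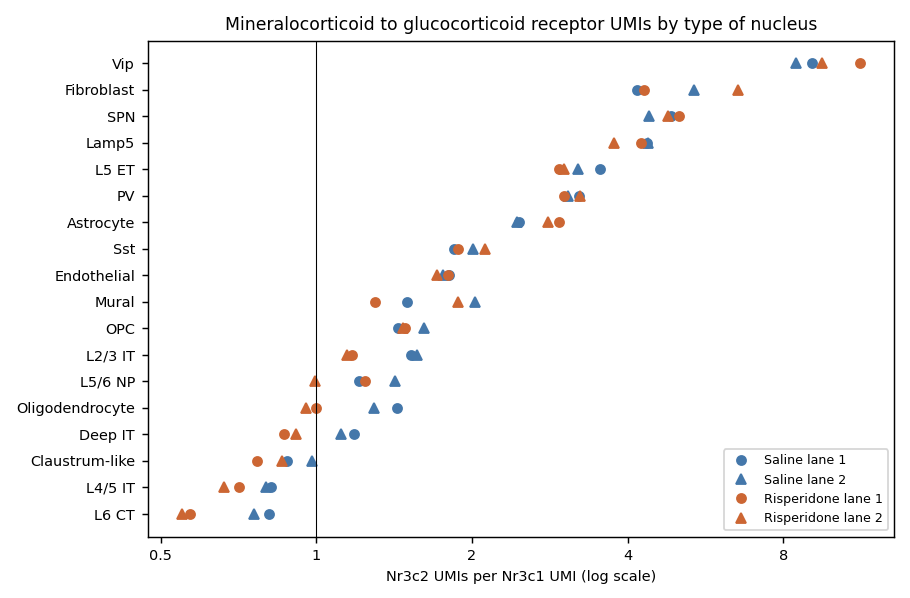
Nr3c2 UMIs per Nr3c1 UMI (horizontal axis, log scale) in each type (rows, sorted by the mean; every name stands for nuclei that are like that type), with 1 point for each lane and a line at 1. The ratio ran from about 9.60 in Vip to 0.672 in L6 CT, and the risperidone points lie left of the saline points in 8 of the 18 types.

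UMIs of both corticosteroid receptors were counted in the same nucleus about as often as their separate shares give. Each nucleus was thinned to 1700 UMIs for this comparison, so that depth was equal. Both genes were then found in 8.95%, 8.18%, 8.38% and 8.62% of all nuclei, while the product of the separate shares was 8.88%, 8.69%, 8.80% and 8.96%. Free RNA adds UMIs of both genes to any nucleus, so these are shares of nuclei with a UMI and not of nuclei that express both.

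Among the sex steroid receptors, Esr1 was highest in Vip-like interneurons, with 21.2, 17.2, 20.4 and 27.2 CPM from 38, 38, 43 and 72 UMIs. Sst-like interneurons followed with 6.96 to 12.1 CPM and did not overlap with the Vip-like class, whose mean was 2.12 times higher. Of the Esr1 UMIs in Vip-like nuclei, 0.101 of the saline count and 0.0406 of the risperidone count were expected from other nuclei. Esr1 was lowest in L4/5 IT-like neurons, with a mean of 1.97 CPM, but 0.996 of the saline and 0.570 of the risperidone count there were expected from other nuclei. With that RNA taken out, its mean was 0.423 CPM in these neurons and 0.152 CPM in astrocyte-like nuclei, which were then the lowest. After thinning, an Esr1 UMI was found in 1.82% to 3.46% of Vip-like nuclei, against 0.182% to 0.530% of L4/5 IT-like and 0.136% to 0.693% of astrocyte-like nuclei. Without thinning, 23 nuclei held 5 or more Esr1 UMIs, of which 9 had no class, 9 were glutamatergic-like without a layer, 3 were Vip-like, 1 was Sst-like and 1 was L2/3 IT-like.

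Esr2 was detected at the edge of what this depth allows. Its highest mean was 6.80 CPM in claustrum-like neurons, which rested on 14, 4, 13 and 8 UMIs (12.6, 2.71, 7.88 and 3.95 CPM). That range overlapped with the fibroblast-like class, which had between 0 and 2 UMIs per lane. No Esr2 UMI was counted in astrocyte-, endothelial- or mural-like nuclei. Nuclei with no class held 32.6% of the Esr2 UMIs (24.1% of all UMIs). Glutamatergic-like nuclei without a layer held 29.9% (21.7%), and claustrum-like neurons 6.07% (1.20%). Without thinning, 2 nuclei held 5 or more Esr2 UMIs, and neither had a class. After thinning, 0.395% to 2.99% of claustrum-like nuclei held an Esr2 UMI, against 0.107% to 0.269% of all glutamatergic-like nuclei.

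Pgr, in contrast, was highest in glutamatergic neurons of the middle layers. It was found at 83.0, 77.1, 77.5 and 72.1 CPM in L4/5 IT-like neurons. L5/6 NP-like neurons followed with 54.5 to 59.8 CPM and did not overlap with them. The other layer types, the interneurons and the SPN-like nuclei lay between 31.5 and 53.9 CPM. Neighbours in the order of their means overlapped, whereas types further apart did not always, such as deep IT-like (45.1 to 53.9 CPM) and SPN-like nuclei (38.9 to 41.7 CPM). Pgr was lower in astrocyte-, OPC- and oligodendrocyte-like nuclei, where lanes ranged from 12.2 to 33.2 CPM. In astrocyte-like nuclei, 0.741 of the Pgr UMIs in saline and 0.772 of those in risperidone were expected from other nuclei. After thinning, 11.1% to 13.2% of L4/5 IT-like neurons held a Pgr UMI.

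Esrrg, the orphan receptor, was highest in PV-like interneurons and lowest in oligodendrocyte-like nuclei, where its mean of 106 CPM was below what other nuclei were expected to bring and the corrected level was 0. PV-like interneurons held 1098, 1100, 1061 and 1080 CPM, which was 1.75 times the next type and did not overlap with it. L5 ET-like (586 to 644 CPM), L5/6 NP-like (566 to 652 CPM) and L6 CT-like neurons (536 to 581 CPM) formed a second tier, in which the first overlapped with the second and the second with the third. SPN-like nuclei followed with 447 to 509 CPM, and Lamp5- and deep IT-like nuclei with 261 to 330 CPM. The lowest neuronal levels were those of L4/5 IT-like (95.2 to 129 CPM) and L2/3 IT-like neurons (83.7 to 130 CPM). Esrrg was thus higher in each lane of the ET-, NP- and CT-like neurons than in any lane of the 3 IT-like types. After thinning, 73.0% to 78.6% of PV-like nuclei held an Esrrg UMI, against 12.7% to 18.3% of L2/3 IT-like neurons. When the RNA of other nuclei was taken out, the mean level in PV-like nuclei was 1349 CPM.

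The genes whose levels over the 18 types were most like each receptor were found among 11518 genes by Pearson's r of log2(CPM + 1) on the mean of the lanes. The types share lanes and free RNA, so r is a description. For Esr1 these genes were Slc44a5 (r = 0.757), Npas1 (0.753) and Aff2 (0.749), each highest in Vip-like interneurons. For Pgr they were Grin1, the obligatory NMDA receptor subunit (0.876), Reep2 (0.874) and Wdr90 (0.874). For Nr3c1 they were Antxr1 (0.851), Wdpcp (0.850) and Traf5 (0.846), and for Nr3c2 they were Tnrc18 (0.810), Ogt (0.807) and Babam1 (0.80). For Esrrg they were Bcl11b (0.821), a transcription factor that was also used as a check marker of ET neurons, Plcxd3 (0.820) and Ttc19 (0.802). For Esr2 they were Casp12 (0.840), Osr1 (0.824) and Gm6602 (0.789), which rest on its few UMIs. Between the receptors themselves r lay between -0.50 for Pgr with Nr3c2 and 0.29 for Pgr with Esrrg.

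The study asked whether adolescent risperidone left a trace in cortical gene expression in adulthood. The pools were compared as the log2 ratio of risperidone to saline, scaled by TMM, a factor that sets the bulk of genes to no change. A gene was called higher or lower when it averaged 10 CPM or more over the 4 lanes, differed by 0.5 or more on the log2 scale and showed no overlap between the lanes of the pools. In all nuclei, 4 receptors reached the minimum level and none was called, while 7.33% of the 7491 measured genes were lower and 3.1% were higher. In glutamatergic-like nuclei none of 4 was called, against 7.47% lower and 4.38% higher of 7187 genes. None of 4 was called in PV-like (8.6% lower and 7.41% higher of all genes) and none of 5 in Sst-like interneurons (7.44% lower and 6.29% higher). The scaling changes which genes pass this rule. By plain CPM, 61.1% of the called genes in all nuclei were higher instead of 29.7%, and the median of all genes shifted by 0.10 on the log2 scale. The corresponding shares were 61.3% and 37.0% in glutamatergic-like, 65.5% and 46.3% in PV-like and 61.5% and 45.8% in Sst-like nuclei.

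Below that threshold, Nr3c2 and Esrrg were lower in the risperidone pool in glutamatergic-like nuclei and Nr3c1 was slightly higher. Nr3c2 was found there at 275 and 274 CPM in saline and at 243 and 240 CPM in risperidone, a log2 fold change of -0.27 (exact 95% interval of the count ratio, -0.29 to -0.25). Esrrg was found at 286 and 282 CPM in saline and at 236 and 233 CPM in risperidone (log2 fold change -0.36, interval -0.38 to -0.34). Nr3c1 was found at 168 and 168 CPM in saline and at 193 and 194 CPM in risperidone (log2 fold change 0.12, interval 0.10 to 0.15, and 0.21 by plain CPM). For these 3 genes the lanes of the pools did not overlap and the direction was the same by plain CPM. Pgr was at 51.0 and 52.0 CPM in saline and at 50.2 and 50.0 CPM in risperidone (log2 fold change -0.13, interval -0.17 to -0.08, and -0.04 by plain CPM). By plain CPM this gap was close to the spread between the saline lanes, although the lanes of the pools did not overlap. With TMM the single pairs of lanes gave -0.15 to -0.09.

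The estrogen receptors were below the minimum level of 10 CPM in glutamatergic-like nuclei and could not be called. Esr1 was at 7.30 and 7.30 CPM in saline and at 5.51 and 5.92 CPM in risperidone (log2 fold change -0.43, interval -0.56 to -0.31). Esr2 was at 1.48 and 1.54 CPM in saline and at 1.14 and 0.844 CPM in risperidone (log2 fold change -0.72, interval -1.02 to -0.43). Both were lower in each risperidone lane than in each saline lane. The class mixes layers, and a change in their mix and a change per nucleus cannot be told apart in its sum. By layer, Esr1 gave -0.03 in L2/3 IT-like (interval -0.28 to 0.23), -0.57 in deep IT-like (-0.99 to -0.14) and -0.54 in L6 CT-like neurons (-1.08 to -0.01). It gave -0.86 in L4/5 IT-like (-1.71 to -0.01), -0.27 in L5 ET-like (-1.01 to 0.49) and 0.01 in claustrum-like neurons (-1.04 to 1.09). L5/6 NP-like neurons held 12 Esr1 UMIs in saline and 0 in risperidone. Glutamatergic-like nuclei without a layer held the most Esr1 UMIs of the class (560 in saline and 474 in risperidone) and gave -0.43 (interval -0.61 to -0.25). These were 5357 of 13774 and 6188 of 15210 glutamatergic-like nuclei in saline and 3763 of 13276 and 3406 of 12173 in risperidone, while L2/3 IT-like nuclei were 3129 and 3414 of the same totals in saline and 4213 and 3900 in risperidone. The nuclei without a layer were themselves a mix of clusters. Of the glutamatergic-like nuclei, 1 such cluster held 5.82% and 6.10% in saline and 2.18% and 2.04% in risperidone. Another held 4.49% and 4.61% in saline and 5.20% and 5.36% in risperidone. A change in mix and a change per nucleus cannot be told apart in this group either. With RNA of other nuclei taken out, Esr1 gave 0.11 in L2/3 IT-like, -0.65 in deep IT-like and -0.33 in L6 CT-like neurons. In the same setting it gave 0.04 in L5 ET-like and 0.23 in claustrum-like neurons. The L4/5 IT-like value turned to 1.92, from 25 and 26 counted UMIs. After thinning, an Esr1 UMI was found in 1.22% and 1.12% of glutamatergic-like nuclei in saline and in 0.811% and 0.723% in risperidone.

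A sum over all nuclei also moves with the mix of types, and a change in the mix and a change per nucleus cannot be told apart in it. By plain CPM with the 18 types weighted equally, the log2 fold change of Nr3c2 in all nuclei was 0.01 instead of -0.15. That of Esrrg was -0.18 instead of -0.22, and that of Esr2 was -0.09 instead of -0.47. Esr1 went the other way, with -0.50 instead of -0.22. The values by type follow for this reason.

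**Figure D3:**
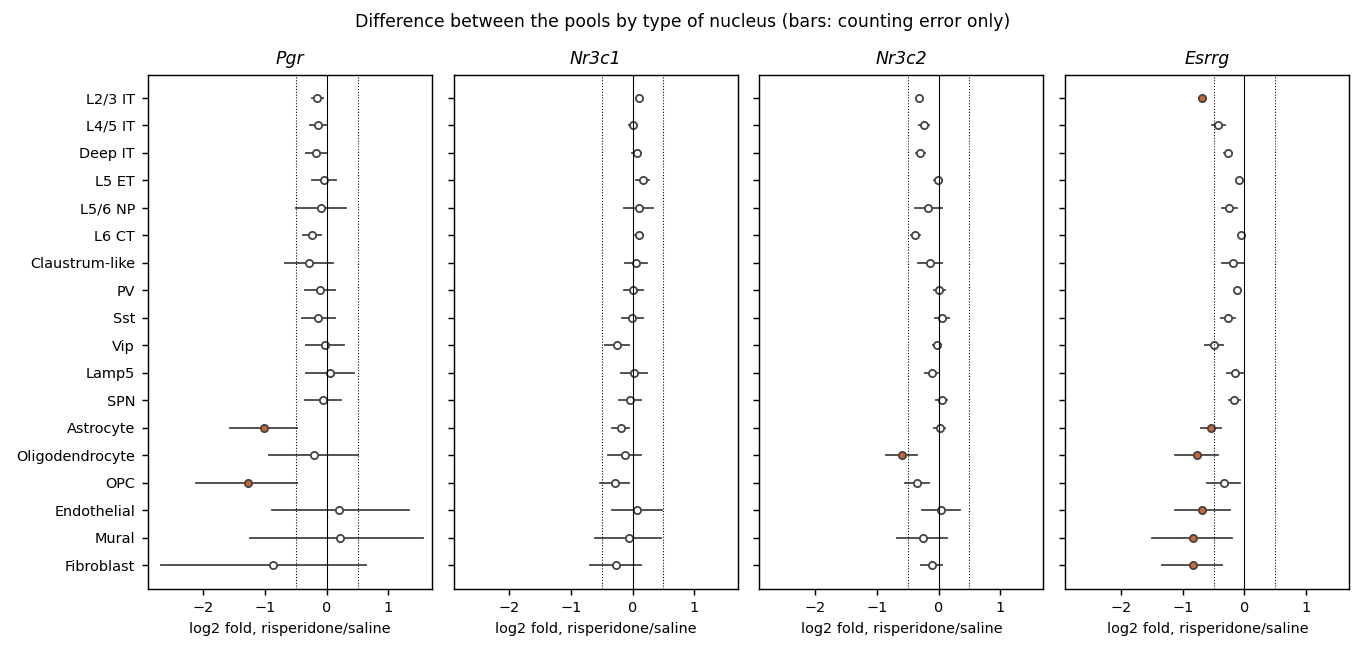
Difference between the pools as log2 fold change (horizontal axis; dotted lines at the threshold of 0.5 on either side, solid line at no change) for the 4 receptors measured in every type (rows; every name stands for nuclei that are like that type). Bars are exact 95% intervals of the count ratio, counting error only, and filled points passed the size rule: 6 for Esrrg, 2 for Pgr and 1 for Nr3c2, all lower, and none for Nr3c1.

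Calls were common in the small types, so each type has its own background. Among the layer types, the share of all measured genes called lower and higher was 7.07% and 5.64% in L2/3 IT-like, 6.2% and 4.9% in L4/5 IT-like, 7.88% and 5.63% in deep IT-like and 10.2% and 6.71% in L5 ET-like neurons. It was 11.6% and 9.46% in L5/6 NP-like, 6.59% and 4.73% in L6 CT-like and 10.2% and 7.77% in claustrum-like neurons. In the remaining neuronal classes it was 7.86% and 6.59% in Vip-like, 9.07% and 9.17% in Lamp5-like and 9.95% and 7.09% in SPN-like nuclei. Outside the neurons, it was 16.2% and 8.69% in astrocyte-like, 9.62% and 9.59% in oligodendrocyte-like, 11.9% and 10% in OPC-like, 12.6% and 15.1% in endothelial-like, 18.7% and 12% in mural-like and 16.3% and 11.1% in fibroblast-like nuclei. Against these shares, none of the receptors was called higher in any of the 18 types.

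Esrrg was below 0 in all 18 types and was called lower in 6 of them. By plain CPM it was below 0 in 17, with L6 CT-like neurons at 0.01, and was called lower in 5, without the astrocyte-like class (-0.45). In L2/3 IT-like neurons it was found at 127 and 130 CPM in saline and at 85.9 and 83.7 CPM in risperidone, a log2 fold change of -0.68 (interval -0.74 to -0.62). The larger cluster of this type held 64.9% and 58.6% of its nuclei in saline and 51.0% and 51.5% in risperidone, and the other cluster held the rest. In the same nuclei the estimate of RNA from other nuclei was 25.3% and 22.9% in saline and 12.9% and 13.8% in risperidone. The summed level of the 16 foreign markers there was 430 and 428 CPM in saline and 344 and 347 CPM in risperidone, 12 of them were higher in both saline lanes, and none was at 0 in a lane. Of the Esrrg UMIs in these neurons, 0.584 of the saline count and 0.425 of the risperidone count were expected from other nuclei. With that RNA taken out, the log2 fold change of Esrrg was -0.40, which is below the threshold. In L4/5 IT-like neurons, where the deposited counts gave -0.43, the same correction turned the value to 0.89. In OPC-like nuclei (-0.33) more Esrrg UMIs were expected from other nuclei than were counted in saline, so no corrected value is given.

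The other calls of Esrrg were in non-neuronal types. It was lower in astrocyte-like nuclei (194 and 218 CPM in saline, 160 and 149 CPM in risperidone, log2 fold change -0.54), where the estimate of other RNA was 43.5% and 40.5% in saline and 24.4% and 23.0% in risperidone. After the correction the astrocyte-like value was -0.28, below the threshold, and the nuclei of the 2 pools lay mostly in different clusters, as described above. Esrrg was also lower in oligodendrocyte-like nuclei (118, 137, 104 and 63.6 CPM, log2 fold change -0.77), where more Esrrg UMIs were expected from other nuclei than were counted. The remaining calls were in endothelial- (-0.68), mural- (-0.83) and fibroblast-like nuclei (-0.84), where the part of other RNA was not tested. The fibroblast-like value rested on 1 lane, since the levels were 225 and 200 CPM in saline and 198 and 41.1 CPM in risperidone, the last from 6 UMIs. In the 4 types where Esrrg was highest it was not called, with log2 fold changes of -0.12 in PV-like (interval -0.16 to -0.07), -0.09 in L5 ET-like (-0.14 to -0.04), -0.24 in L5/6 NP-like (-0.37 to -0.12) and -0.06 in L6 CT-like nuclei (-0.10 to -0.02). The lanes of the pools overlapped in the L5 ET-like and L6 CT-like types and not in the others. After the correction these values were -0.30, -0.14, -0.48 and -0.16 in the same order, and in SPN-like nuclei -0.38 in place of -0.16. By plain CPM they were -0.04, -0.02, -0.15 and 0.01. In Vip-like interneurons Esrrg was just short of a call, at 215 and 214 CPM in saline and 154 and 164 CPM in risperidone (log2 fold change -0.49, interval -0.63 to -0.35), and it stayed at -0.44 after the correction and at -0.43 by plain CPM.

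Nr3c2 was below 0 in 13 of 18 types, or in 10 by plain CPM, and by both scalings was called in 1, the oligodendrocyte-like class, where it was lower (251 and 214 CPM in saline, 154 and 156 CPM in risperidone, log2 fold change -0.60, interval -0.85 to -0.34). The estimate of other RNA in this class was 55.8%, 48.3%, 44.7% and 32.1% in the 4 lanes, and the corrected value was -0.80. The mix of its clusters also differed between lanes, as described above. Among the layer types Nr3c2 was lower in the IT-like and CT-like neurons, with log2 fold changes of -0.31 in L2/3 IT-like, -0.24 in L4/5 IT-like, -0.29 in deep IT-like and -0.37 in L6 CT-like neurons, none past 0.5. After the correction for other RNA these values were -0.28, 0.15, -0.18 and -0.11 in the same order. The correction also moved Sst-like interneurons from 0.06 to 0.41, L5/6 NP-like neurons from -0.16 to 0.22 and claustrum-like neurons from -0.14 to -0.43. In the 5 types that followed the fibroblast-like class in level, Nr3c2 was not called, with -0.03 in Vip-like interneurons (interval -0.09 to 0.04), 0.02 in astrocyte-like (-0.07 to 0.11), -0.11 in Lamp5-like (-0.22 to -0.01), 0.05 in SPN-like (-0.03 to 0.13) and -0.01 in L5 ET-like nuclei (-0.07 to 0.05). The corrected values of these types were -0.14, -0.16, -0.19, -0.12 and -0.01.

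Nr3c1 was not called in any of the 18 types. It was above 0 in 10 and below 0 in 8 of them, or in 13 and 5 by plain CPM, with log2 fold changes between -0.29 in OPC-like and 0.16 in L5 ET-like nuclei. All 7 layer types were above 0, among them L2/3 IT-like (0.11, interval 0.06 to 0.15) and L6 CT-like neurons (0.11, interval 0.05 to 0.17), while L4/5 IT-like neurons, where it was highest, gave 0.01 (-0.07 to 0.08). With RNA of other nuclei taken out, the L4/5 IT-like value was -0.15 and the deep IT-like value turned from 0.06 to -0.01. The same correction gave -0.62 in OPC-like nuclei, which is past the threshold, 0.04 in L6 CT-like neurons in place of 0.11, 0.25 in PV-like interneurons in place of 0.01, 0.20 in Sst-like interneurons in place of 0.00, -0.42 in astrocyte-like nuclei in place of -0.19, -0.31 in oligodendrocyte-like nuclei in place of -0.13, and 0.44 in SPN-like nuclei in place of -0.04.

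Pgr was called lower in astrocyte-like nuclei (24.1 and 28.7 CPM in saline, 16.2 and 13.2 CPM in risperidone, log2 fold change -1.01, interval -1.56 to -0.48) and in OPC-like nuclei (22.9, 31.8, 12.2 and 12.6 CPM, log2 fold change -1.27, interval -2.12 to -0.49). In astrocyte-like nuclei the corrected value was -1.59, and there too the pools lay mostly in different clusters. In OPC-like nuclei the estimate of other RNA was 47.7%, 58.6%, 32.3% and 31.7%, and 0.919 of the saline Pgr UMIs and 1.20 times the risperidone UMIs were expected from other nuclei, so no corrected value can be given. In oligodendrocyte-like nuclei, where Pgr was not called, the correction turned -0.20 to 0.96, from 40 and 31 UMIs of which 0.930 and 0.732 were expected from other nuclei. By plain CPM the same types were called, and Pgr was below 0 in 12 of the 18 types instead of 15. In the neuronal types, where Pgr was higher, its log2 fold changes lay between -0.28 in claustrum-like and 0.05 in Lamp5-like nuclei and none was called. After the correction the claustrum-like value was -0.56, past the threshold, and the L4/5 IT-like value was -0.32 in place of -0.14. Of the estrogen receptors, Esr1 reached the minimum level only in Vip-like (0.29, interval -0.14 to 0.73) and Sst-like interneurons (0.34, interval -0.21 to 0.91), whose intervals include 0. In Lamp5-like interneurons Esr1 had 9 and 13 UMIs in saline and 3 and 3 in risperidone (8.28, 9.24, 1.78 and 1.5 CPM), below the minimum level.

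Since each pool held both sexes, nuclei were called female when they held a UMI of Xist and none of 4 Y-linked genes, and male in the reverse case. Of the nuclei with a call, 66.1% and 67.4% in saline and 72.0% and 70.5% in risperidone were female, although the pools were of 5 mice of each sex. Another 15099 nuclei held both kinds of UMI and were set aside. Nuclei with neither kind had no call either. These were 6429 of 22750 and 6348 of 25841 kept nuclei in saline, and 2465 of 20973 and 1629 of 19814 in risperidone. The share without a call for this reason was thus larger in the saline pool. Free RNA can place a nucleus in the wrong sex, and each sex and condition is again 1 set of 5 mice. Values by sex are plain CPM without TMM, so the value of Nr3c1 over both sexes to set beside them is 0.21.

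**Figure D4:**
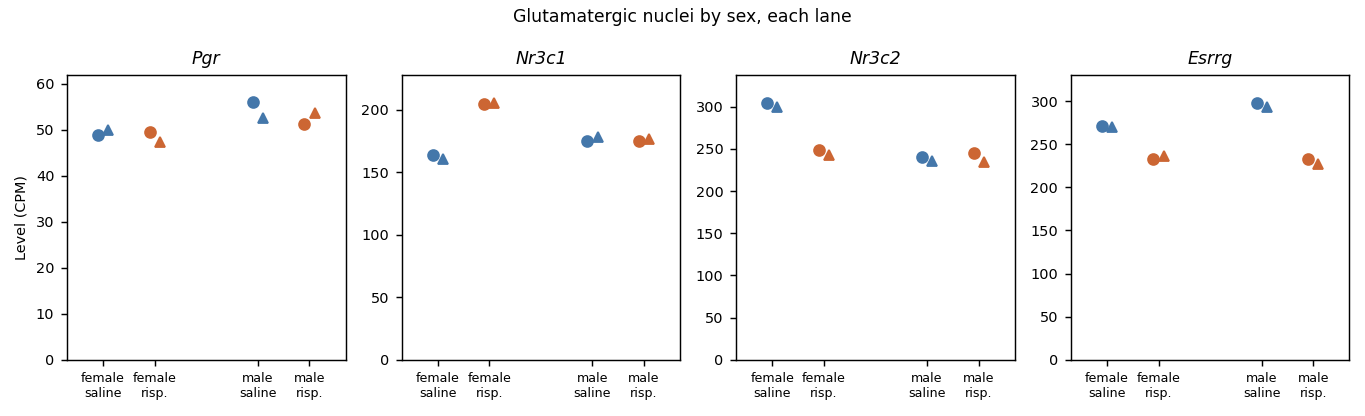
Level in CPM (vertical axes from 0) of 4 receptor genes in glutamatergic-like nuclei called female or male, with a circle for lane 1 and a triangle for lane 2 of the saline (blue) and risperidone (orange) pools. Nr3c1 was higher and Nr3c2 lower in the risperidone lanes of female nuclei (205 and 205 CPM, and 248 and 243 CPM), while the male nuclei of the pools overlapped for both genes.

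In female glutamatergic-like nuclei, Nr3c1 was found at 164 and 161 CPM in saline and at 205 and 205 CPM in risperidone, a log2 fold change of 0.34 (interval 0.30 to 0.38). In male nuclei it was found at 175 and 178 CPM in saline and at 175 and 177 CPM in risperidone (log2 fold change -0.01, interval -0.05 to 0.04). The higher level in risperidone was thus seen in the female nuclei, and their level was the lowest of all in saline and the highest of all in risperidone. Nr3c2 showed the opposite picture, with 304 and 300 CPM in saline and 248 and 243 CPM in risperidone in female nuclei (log2 fold change -0.30, interval -0.33 to -0.27). In male nuclei it was at 241, 235, 245 and 234 CPM (log2 fold change 0.01, interval -0.04 to 0.05). In saline, Nr3c2 was higher in female than in male nuclei by 0.34 on the log2 scale (interval 0.30 to 0.38), and in risperidone by 0.04 (interval 0.01 to 0.07). A gap of 0.3 or more between the log2 fold changes of the sexes was found for 12.2% of 7086 genes in these nuclei, so the difference in Nr3c1 and Nr3c2 is not rare, and it was not tested. The class mixes layer types, and these were not alike for Nr3c2. Its female and male log2 fold changes were -0.36 and -0.03 in L2/3 IT-like and -0.35 and -0.06 in L6 CT-like neurons. They were -0.28 and -0.15 in deep IT-like, -0.03 and -0.18 in L4/5 IT-like and -0.004 and -0.02 in L5 ET-like neurons.

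Esrrg was lower in risperidone in both sexes, with 271, 270, 233 and 237 CPM in female nuclei (log2 fold change -0.20) and 297, 293, 233 and 227 CPM in male nuclei (-0.36). Pgr was at 48.9, 49.9, 49.4 and 47.4 CPM in female and at 56.0, 52.7, 51.3 and 53.7 CPM in male nuclei, where the lanes of the pools overlapped in both sexes. In each condition the female lanes of Pgr lay below the male lanes. Esr1 gave a log2 fold change of -0.52 in female nuclei (interval -0.71 to -0.33) and of -0.01 in male nuclei (-0.27 to 0.26), and Esr2 gave -0.88 (-1.29 to -0.47) and -0.39 (-1.04 to 0.26), from few UMIs.

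Of the 4 receptors with enough UMIs, Nr3c1 differed between the pools in opposite directions in female and male nuclei, in every lane, in L2/3 IT-like and astrocyte-like nuclei, Nr3c2 in astrocyte-like nuclei and Esrrg in L6 CT-like neurons. The share of all genes that did so was 7.24% in all nuclei, 7.35% in glutamatergic-like, 7.46% in L2/3 IT-like, 6.35% in L4/5 IT-like, 4.36% in deep IT-like, 3.78% in L5 ET-like and 5.58% in L6 CT-like nuclei. It was 4.35% in PV-like, 4.61% in Sst-like, 5% in Vip-like and 5.33% in astrocyte-like nuclei.

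Receptors act through partners and targets, and 6 gene lists around them were compared in glutamatergic-like nuclei in the same way. The median log2 fold change of all 7187 genes measured there was -0.01, and that of the 4 measured receptors was -0.20. Of the other steroid receptors, 6 of 11 genes were measured, 1 was called lower and none higher, with a median of -0.26. The call was Paqr7, a membrane progestin receptor, at 11.2 and 12 CPM in saline and 9.10 and 8.53 CPM in risperidone (log2 fold change -0.50), which plain CPM did not call. It reached the minimum of 10 CPM only through the saline pool, where it was higher, so this call is no more than a description of it. Its relatives Paqr8 (-0.47) and Paqr9 (-0.39) were not called in glutamatergic-like nuclei. Paqr8 was called lower in all nuclei and in Vip-, Lamp5-, SPN-, L4/5 IT- and claustrum-like nuclei, where 6.2% to 10.2% of all genes were. It was called higher in endothelial-like nuclei (15.1% of all genes).

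Of the chaperones that hold steroid receptors ready for hormone, 9 of 11 were measured, none was called and 7 were above 0, with a median of 0.23. Dnaja1, an Hsp40 co-chaperone, was at 24.6 and 25.6 CPM in saline and at 36.3 and 35.9 CPM in risperidone (log2 fold change 0.43) and was called higher by plain CPM. Hspa8, the constitutive Hsp70 (0.28), and St13, an Hsp70-interacting protein (0.27), lay on the same side, whereas Hsp90aa1, the inducible Hsp90, gave -0.34. Over the 18 types, 0 to 4 of the 9 to 11 measured members were called higher, the most in oligodendrocyte-like nuclei (4 of 10, where 9.59% of all genes were). In 3 types 1 member was called lower, which was Fkbp5 in Lamp5-like, Hsp90aa1 in SPN-like and Dnaja1 in mural-like nuclei.

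Of the coregulators, all 12 were measured and none was called, with a median of -0.07 that turned to 0.02 by plain CPM. Ppargc1b, a coactivator of estrogen-related receptors, gave -0.45, Carm1 -0.18 and Ncoa3 -0.14. By type, Ppargc1b was called lower in Sst-, SPN-, astrocyte-, OPC-, mural-, fibroblast- and deep IT-like nuclei. Carm1 was called lower in endothelial- and mural-like nuclei and Ncoa3 in SPN- and L5/6 NP-like nuclei. In these types 7.44% to 18.7% of all genes were called lower, and none of these coregulators was called higher in any type. Of 14 genes of steroid metabolism 4 were measured and 1 was called lower, with a median of 0.05. This was Cyp11a1, which encodes the enzyme that cleaves the cholesterol side chain, at 14.8 and 15.8 CPM in saline and 10.7 and 9.28 CPM in risperidone (log2 fold change -0.72). Its risperidone pool was at 9.91 CPM, so it too reached the minimum through the saline pool. Hsd17b12 (0.37), Hsd17b4 (0.18) and Cyp7b1 (-0.08) were not called in glutamatergic-like nuclei. By type, Hsd17b12 was called higher in Sst-, SPN-, endothelial-, L5 ET-, L5/6 NP- and L6 CT-like nuclei and lower in none. In these types 4.73% to 15.1% of all genes were called higher. Cyp7b1 was called lower in Vip- and fibroblast-like nuclei, and Hsd17b4 was called higher in fibroblast-like nuclei.

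Of 15 genes that are known to respond to glucocorticoids, 5 were measured in glutamatergic-like nuclei and none was called, with a median of 0.00 (-0.01 with the size factors of DESeq2). Zbtb16 was at 384 and 371 CPM in saline and at 323 and 322 CPM in risperidone (log2 fold change -0.31). Sgk1, a kinase gene, was at 105, 105, 99.6 and 104 CPM (-0.12). Fkbp5, a co-chaperone that restrains the glucocorticoid receptor, was at 30.7, 29.1, 33.4 and 32.6 CPM (0.06), and Per1 gave 0.04. Over the 18 types, 0 to 4 members of this list were called higher and 0 to 1 lower. In astrocyte-like nuclei 11 were measured and 10 were above 0, with Nfkbia, Mt1, Mt2 and Pdk4 called higher and Sgk1 lower, in a class where 8.69% of all genes were called higher and whose pools lay mostly in different clusters. In endothelial-like nuclei all 11 measured members were above 0 and 4 were called higher (15.1% of all genes), and in fibroblast-like nuclei all 9 were above 0 and 3 were called higher (11.1%). The median of all genes was -0.04 in astrocyte-like, 0.02 in endothelial-like and -0.12 in fibroblast-like nuclei. A gene can reach 10 CPM through the pool where it is higher, so these counts are descriptions. The estimate of other RNA was at least 80.7% in endothelial-like and 62.5% in fibroblast-like nuclei. Of 8 estrogen-responsive genes only Igf1r (-0.34) and Nrip1 (0.09) were measured in glutamatergic-like nuclei, and neither was called.

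**Figure D5:**
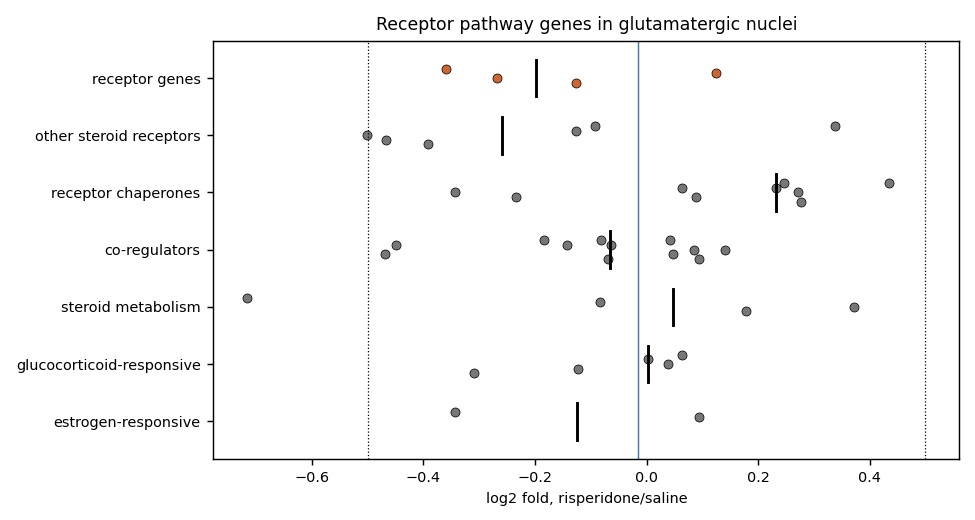
log2 fold change of risperidone against saline (horizontal axis) in glutamatergic-like nuclei for every measured gene (point) of the receptor genes (orange) and of the 6 lists (grey), with the median of each row as a black bar. Dotted lines mark the threshold of 0.5 on either side and the blue line the median of all 7187 genes (-0.01). Only Paqr7 and Cyp11a1 lie beyond a dotted line.

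The promoters, taken here as the 300 bases around a RefSeq start site on GRCm38.p6, were searched on both strands for the letters of 3 response elements. The glucocorticoid response element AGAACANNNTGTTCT, a palindrome, was found in 3 of 32851 promoters (0.00913%), the estrogen-related receptor element TCAAGGTCA in 139 (0.423%) and the estrogen response element GGTCANNNTGACC in 23 (0.0700%). None of the 9 promoters found for 5 of the receptors held any of them, and Nr3c1 had no entry. Among the listed genes, Sgk1 held matches in 3 of its promoters, which are printed below 5′ to 3′ on the plus strand with the match in capitals. The first is a glucocorticoid response element at chr10:21993701-21993715, 189 bases before a start site, and the others are estrogen-related receptor elements at chr10:21978609-21978617 (on the minus strand) and chr10:21986000-21986008 (on the plus strand).
Sgk1 glucocorticoid response element: gcggaaAGAACAGAATGTTCTcggaga
Sgk1 estrogen-related receptor element, minus strand: ccgggcTGACCTTGAactttt
Sgk1 estrogen-related receptor element, plus strand: ccgagtTCAAGGTCAtccggg
These matches are letters in a sequence, and receptor binding was not measured.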

How the data were processed

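Reads were aligned by the authors in Cell Ranger 8.0.1 (mm10 reference, intronic reads included), and the authors deposited a filtered matrix of raw UMI counts per gene and nucleus for each lane. Nuclei with at least 500 genes, at most 5% mitochondrial UMIs and at least 1700 UMIs were kept, since the listed nuclei began at 1364 and 1630 UMIs in saline and at 500 in risperidone. Nuclei most like simulated doublets were removed (11940). The rest were clustered over all lanes (2000 variable genes, 30 principal components, 20 neighbours, resolution 1.5) and named from marker lists, with thresholds set after the marker levels were seen. The receptors and lists were chosen with earlier results of these data known. Fam84b and Ctgf among the markers and Sts among the list genes were not found under these symbols.

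UMIs were summed per type and lane, and fold changes used summed lanes scaled by TMM (edgeR 4.0.16, R 4.3.3). No test was run because each condition was 1 pool. Intervals are exact at 95% (conditional binomial for ratios). RNA of other nuclei was estimated from foreign markers and was not taken out where it reached 60%. Named are all receptors, the 3 genes most alike to each and, from each list, up to 4 genes with the largest absolute fold change among those at 10 CPM or more in glutamatergic-like nuclei, apart from 2 genes of the lists that are not reported here. Genes named in other classes, and the gap of 0.3 between the sexes, were chosen after the values were seen. Python 3.11.15, numpy 2.4.6, scipy 1.17.1, pandas 2.3.3, igraph 0.11.9 and matplotlib 3.10.9 were used with seed 1. The size rule was tested on simulated counts of 3 classes, scaled by library size and not by TMM. All simulated lanes were drawn from the saline profile of the class with counting error only. Differences between pools of mice were not simulated, so the wrong calls below do not cover them. With true changes of 0.8 and 1.5, it wrongly called 0 and 0 unchanged genes in glutamatergic-like nuclei. The wrong calls were 34 and 34 in PV-like and 72 and 63 in Sst-like nuclei. Alternatives were plain CPM, DESeq2 1.42.0 size factors, other minimum levels, no UMI floor, a stricter marker gate, other RNA taken out, equal weights of types, each lane left out, unthinned shares and 2 UMIs for a call of sex.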

Additional observations from a re-analysis of the deposited data

Results flagged for a closer look

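The log2 fold changes (plain CPM) of 4 pairs of receptor and type had opposite directions in female and male nuclei in every lane. The difference between the sexes was not tested, since each sex and condition was 1 set of 5 mice and the lanes are technical. In L2/3 IT-like neurons, Nr3c1 was higher in risperidone in female nuclei (177 and 167 against 216 and 219 CPM, log2 fold change 0.34) and lower in male nuclei (194 and 181 against 177 and 180 CPM, -0.061), in a type where 7.46% of genes were opposite in this way. In L6 CT-like neurons, Esrrg was higher in female nuclei (512 and 519 against 575 and 614 CPM, 0.21) and lower in male nuclei (581 and 604 against 491 and 547 CPM, -0.18), where 5.58% of genes were opposite. In astrocyte-like nuclei both corticosteroid receptors were opposite, as were 5.33% of genes. Nr3c1 was there at 221 and 222 against 239 and 242 CPM in female nuclei (0.12) and at 287 and 285 against 172 and 154 CPM in male nuclei (-0.83). Nr3c2 was at 554 and 530 against 710 and 660 CPM in female nuclei (0.33) and at 664 and 657 against 496 and 480 CPM in male nuclei (-0.44). The astrocyte-like values rest on 1311 female and 586 male nuclei, and 1 of the 2 clusters of this class held 9.83% and 9.29% of its nuclei in saline and 95.6% and 96.3% in risperidone.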

How the results depend on the processing

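No paired analysis was possible because each condition was 1 pool and no test between the conditions was made. With a minimum level of 1 CPM, and with none, 1 receptor (Esr2) was lower in all nuclei and in glutamatergic-like nuclei, and with none 1 was lower in PV-like interneurons. Leaving out single lanes gave 0 to 1 receptors higher in Sst-like interneurons (Esr1, 0.68 without saline lane 2). With RNA of other nuclei taken out, log2 fold changes turned from -0.43 to 0.89 (Esrrg, L4/5 IT-like) and from -0.20 to 0.96 (Pgr, oligodendrocyte-like), and passed the threshold in the same direction for Nr3c1 in OPC-like (-0.62) and Pgr in claustrum-like nuclei (-0.56). In the same setting, 0 receptors were lower in L2/3 IT-like neurons, and the levels were 11.4 CPM for Esr2 in claustrum-like, 87.1 for Pgr and 269 for Nr3c1 in L4/5 IT-like, and 1349 for Esrrg in PV-like nuclei. A stricter marker gate gave Nr3c2 617 CPM in fibroblast-like nuclei and left no PV-, Vip- or deep IT-like nuclei, so those values could not be given. With 2 UMIs for a call of sex, the log2 fold changes in glutamatergic-like nuclei were -0.33 for Nr3c2 in female nuclei and -0.15 for Pgr, 0.051 for Nr3c2 and -0.40 for Esrrg in male nuclei. Without thinning, the mean shares of glutamatergic-like nuclei with a UMI were 3.09% for Esr1, 0.661% for Esr2, 24.3% for Pgr, 57.3% for Nr3c1, 59.4% for Nr3c2 and 53.7% for Esrrg, in place of 0.968%, 0.204%, 8.30%, 25.9%, 30.4% and 29.0%. Under the other settings, 111 values of this kind stayed within the spread. The cause of these shifts was not tested. Esr1 and Esr2 are limited by their counts.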

Other observations

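Microglia-like nuclei were too few for the comparisons above 1700 UMIs, with 5, 8, 4 and 2 nuclei in the 4 lanes. Without that floor, which left 12 and 10 nuclei in saline and 81 and 80 in risperidone at a median of 1515, 1921, 773 and 943.5 UMIs, Nr3c1 was counted 8, 9, 41 and 40 times in them, at 324 and 419 CPM in saline and 541 and 490 CPM in risperidone (log2 fold change 0.78, interval 0.01 to 1.63, and 0.48 by plain CPM). Nr3c2 was counted 10, 8, 19 and 19 times, at 405, 373, 251 and 233 CPM (-0.39, interval -1.24 to 0.50, and -0.69 by plain CPM).

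Outside the rule for named genes, Errfi1, a feedback inhibitor of the EGF receptor that responds to glucocorticoids, was the only gene of its list called in all nuclei, where it was higher (7.75, 7.84, 12.6 and 11.8 CPM, log2 fold change 0.54), while 3.1% of all genes were called higher. It reached the 10 CPM minimum only through the risperidone pool, where it was higher, so the call is a description, and it was chosen after its values were seen.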
